A study of Mus musculus with 27 samples.

Results

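Expression of 5 regenerating (Reg) genes, Reg1, Reg3a, Reg3b, Reg3g and Reg4, was examined in 27 poly(A) RNA sequencing libraries of mouse cells. These genes were chosen by name as members of the Reg family of secreted lectins, by a rule that uses no measured value, and are 5 of the 22524 genes in each count table. The libraries came from epithelial organoids, from m-ICc12 cells and from mouse embryonic fibroblasts (MEF). Organoids were grown from jejunal crypts of 9 C57BL/6 wild-type mice, 3 from each of the specific pathogen-free (SPF) facilities SR and SE, which differ in microbiota, and 3 from a germ-free (GF) facility, and carried no engineered allele. The donors of 1 facility were young adult male cohoused littermates, so facility, litter and cage cannot be told apart. Each of the 9 organoid cultures, named here by the number of its mouse (Z908 to Z910 from SR, Z911 to Z913 from SE, Z917 to Z919 from GF), gave 1 library labelled untreated and 1 labelled as treated with 5 ng/ml tumour necrosis factor (TNF) for 8 h. m-ICc12, an immortalised line derived from mouse small intestinal crypts, gave 3 libraries with each label, and MEF gave 3 untreated libraries. Libraries of 1 cell line are repeat samples of that line, so the spread between them is not one between animals. Fits of organoids against a line also hold the spread between organoid cultures of different mice.

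Reg proteins are small secreted proteins built around a single C-type lectin domain. In the small intestine, Reg3g and Reg3b are made by enterocytes and Paneth cells and released into the lumen, where Reg3g acts mainly on Gram-positive bacteria by binding peptidoglycan and Reg3b also acts on Gram-negative bacteria. Both are classical targets of interleukin-22 and STAT3 signalling and are low in the gut of germ-free mice. Reg3a is a further member of the Reg3 group, Reg1 was first described as a protein of regenerating pancreas, and Reg4 marks secretory and enteroendocrine cells of the gut.

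Of the 5 genes, 4 lie in 1 cluster. On GRCm38, 6 family genes occupy 98.2 kb of chromosome 6, from Reg3b (ENSMUSG00000071356, chr6:78370657-78373466, plus strand) over Reg3d, Reg3a (ENSMUSG00000079516, chr6:78380709-78383827, plus strand), Reg2 and Reg1 (ENSMUSG00000059654, chr6:78422711-78428667, plus strand) to Reg3g (ENSMUSG00000030017, chr6:78466269-78468872, minus strand). Reg4 (ENSMUSG00000027876, chr3:98222156-98236748, plus strand) stands alone on chromosome 3. Reg3b and Reg3g transcripts were 74.7% identical over 739 aligned bases, with a longest shared run of 35 bases. Reg3a was 75.9% identical to Reg3b and 70.5% to Reg3g, with shared runs of up to 24 bases in both cases. The sources used here do not state how reads that align to several places were counted, so a small exchange of reads between the Reg3 genes was not tested.

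The promoters of the 4 genes with measurable levels are shown as a description of their sequence. They come from RefSeq (GRCm38.p6) and run from 250 bases before to 50 after the annotated start, 5′ to 3′ on the gene's strand. The regions are chr6:78468825-78469124, minus strand for Reg3g, chr6:78370635-78370934, plus strand for Reg3b, chr6:78380459-78380758, plus strand for Reg3a and chr3:98221906-98222205, plus strand for Reg4. Capitals mark matches to 3 motifs: the NF-kB consensus on both strands, the STAT motif TTCNNNGAA on both strands, and TATAAA on the gene's strand only.
Reg3g: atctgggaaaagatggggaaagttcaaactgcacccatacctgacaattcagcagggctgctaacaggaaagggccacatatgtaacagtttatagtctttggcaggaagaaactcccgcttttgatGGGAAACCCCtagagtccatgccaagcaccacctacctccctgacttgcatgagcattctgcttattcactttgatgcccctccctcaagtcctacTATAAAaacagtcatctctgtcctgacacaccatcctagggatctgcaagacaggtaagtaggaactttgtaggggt
Reg3b: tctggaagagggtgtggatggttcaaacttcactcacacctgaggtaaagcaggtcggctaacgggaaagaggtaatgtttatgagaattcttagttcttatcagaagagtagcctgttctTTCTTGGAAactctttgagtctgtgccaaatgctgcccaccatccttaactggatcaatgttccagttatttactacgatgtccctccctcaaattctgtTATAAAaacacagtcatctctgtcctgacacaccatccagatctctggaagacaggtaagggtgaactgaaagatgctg
Reg3a: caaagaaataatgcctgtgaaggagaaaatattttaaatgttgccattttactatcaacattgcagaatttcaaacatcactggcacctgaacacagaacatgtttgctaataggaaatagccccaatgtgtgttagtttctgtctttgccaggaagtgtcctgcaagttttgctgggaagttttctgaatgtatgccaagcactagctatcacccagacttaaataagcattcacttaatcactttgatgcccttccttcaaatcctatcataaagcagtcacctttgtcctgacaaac
Reg4: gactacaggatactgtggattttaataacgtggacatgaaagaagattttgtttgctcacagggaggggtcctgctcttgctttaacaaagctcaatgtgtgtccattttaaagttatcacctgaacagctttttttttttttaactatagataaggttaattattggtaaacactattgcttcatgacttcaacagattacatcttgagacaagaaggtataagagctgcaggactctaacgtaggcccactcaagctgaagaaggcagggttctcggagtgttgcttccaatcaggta
The Reg3g promoter held the NF-kB consensus from -123 to -114, counted from the start site, on both strands at the same bases, and TATAAA from -27 to -22. The Reg3b promoter held the STAT motif from -129 to -121 and TATAAA from -29 to -24, and no match to the NF-kB consensus. Neither the Reg3a nor the Reg4 window held any of these letters, and the Reg1 window held only TATAAA, from -30 to -25. Among all 32851 promoters of the same length, 8.46% held the NF-kB consensus, 8.3% the STAT motif and 8.32% TATAAA, so a match is a description of the sequence and not evidence of binding. Whether these matches bear on the levels of the Reg genes was not tested.

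The labels were checked first. TNF is known to induce Nfkbia, which encodes the NF-kB inhibitor IkB alpha, Tnfaip3, which encodes the deubiquitinase A20, and the NF-kB subunit gene Nfkb2. In organoids, Nfkbia was at 196 ± 27.1 counts per 1000000 counts of the library (CPM; SD, n = 9) in libraries labelled untreated and at 31.1 ± 3.58 (SD, n = 9) in those labelled TNF-treated. All 3 genes were lower in every organoid and m-ICc12 library labelled TNF-treated than in its partner. For all 12 pairs, moreover, the deposited tables are named with the opposite treatment to the sample label. The paper also reports Nfkb2 protein as raised by TNF in organoids. It names Nfkb2 and Tnfaip3 among the transcripts that TNF altered there, without giving their direction in its main text. The 3 genes and the table names both run opposite to the labels, as labels exchanged within pairs would give. Whether the labels were exchanged was not tested further. Groups were nevertheless taken from the labels, so every direction below is one between libraries labelled TNF-treated and libraries labelled untreated. A lower level under the TNF label is therefore not evidence that TNF represses a gene. Exchanging the labels within pairs would reverse the sign of each such difference and leave its size and test as they are. Library totals ranged from 6071103 to 43843615 counts (organoids 11440041 to 35283218). A floor of 3 counts corresponded to 0.0844 to 0.271 CPM in organoid libraries, an estimate that covers counting error only. Summed epithelial markers (Epcam, Cdh1, Vil1, Krt8, Krt20) were at 4450 to 5360 CPM in organoids, 1670 to 2280 in m-ICc12 and 6.77 to 11.6 in MEF, and summed fibroblast markers were at 3220 to 4270 CPM in MEF against 0.0902 to 9.1 in organoids. m-ICc12 libraries had summed Paneth cell markers of at most 4.03 CPM and summed enteroendocrine markers of at most 1.57 CPM, against at least 181 and 104 CPM in organoids.

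Reg3g was the most abundant Reg transcript of organoids labelled untreated and the only member that passed the test between the labels. It ranged from 63.2 to 113 CPM (median 80.7) in the 9 libraries labelled untreated, and from 12.4 to 44.3 CPM (median 20.3) in the 9 labelled TNF-treated. The 2 sets did not overlap. Means were 88.0 ± 19.5 and 24.4 ± 10.6 CPM (SD, n = 9 each), and Reg3g fell by 1.86 on the log2 scale under the TNF label (standard error 0.197, adjusted p = 6.4e-07, edgeR's quasi-likelihood test with Benjamini-Hochberg adjustment). Of 12104 genes tested in this comparison, 168 passed an adjusted p of 0.05, 15 higher and 153 lower, which is 1.39% of all genes, against 1 of the 4 Reg genes above the count filter. By the study's thresholds (unadjusted p at most 0.05 and a log2 change of at least 0.5), 2.91% of genes passed, and Reg3g was again the only Reg gene among them. With the culture as a replicate block, the number of genes passing rose to 397, and Reg3g fell by 1.94 (adjusted p = 1.52e-13) and stayed the only Reg gene called. These are bulk libraries, so fewer cells that make a transcript and less transcript per cell cannot be told apart.

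The fall of Reg3g under the TNF label was seen in 9 of 9 cultures. In SR, Reg3g was at 78.5 CPM and 44.3 CPM in the 2 libraries of Z908 (untreated label first), at 92.9 and 20.3 in Z909, and at 110 and 32.0 in Z910. In SE, it was at 80.7 and 22.3 CPM in Z911, at 63.2 and 12.4 in Z912, and at 75.9 and 18.8 in Z913. In GF, the pairs were 113 and 35.8 CPM in Z917, 111 and 17.6 in Z918, and 66.4 and 16.1 in Z919. The untreated-label library was therefore 1.77-fold (Z908) to 6.29-fold (Z918) higher than its partner, with every other culture between 3.15-fold and 5.08-fold. The mean within-culture difference in log2 CPM was -1.93 ± 0.51 (SD, n = 9, two-sided exact permutation p = 0.00391, the smallest that exchanging labels within 9 cultures can give).

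**Figure D1:**
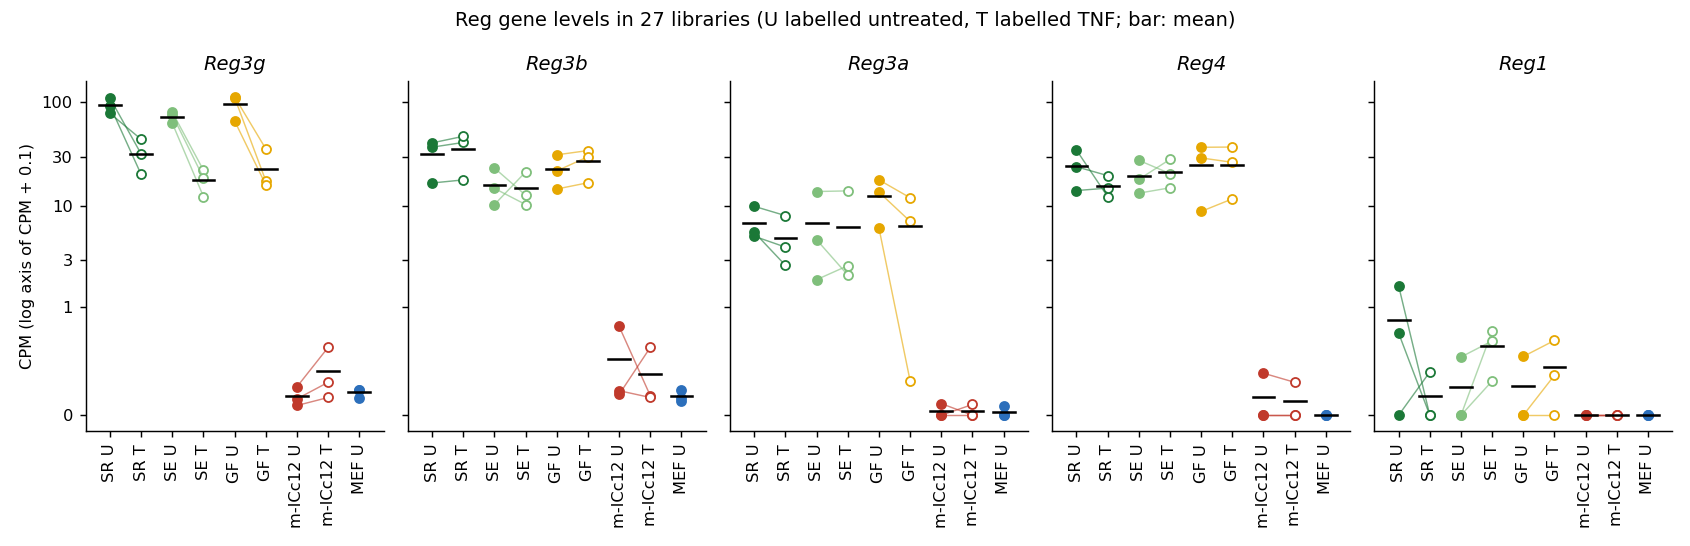
CPM of the 5 Reg genes in each of the 27 libraries, on a log axis of CPM + 0.1, by origin and label (U, labelled untreated, filled; T, labelled TNF, open). Lines join the 2 libraries of a culture and black bars give the group mean; Reg3g lies between 63.2 and 113 CPM in organoids labelled untreated and between 12.4 and 44.3 CPM in those labelled TNF, and the cell line libraries lie near 0 for all 5 genes.

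Reg3b, the other member with a well known antibacterial role, did not pass the test between the labels. It ranged from 10.4 to 40.9 CPM (median 22.0) in libraries labelled untreated and from 10.4 to 47.3 CPM (median 21.5) in those labelled TNF-treated, so the 2 sets overlapped almost fully. The fitted log2 difference was 0.13 (standard error 0.279, adjusted p = 0.962, edgeR). Within cultures the difference was 0.10 ± 0.54 (SD, n = 9, exact permutation p = 0.586), with 7 of 9 cultures higher under the TNF label. The 3 SR and the 3 GF cultures lay between 0.10 and 0.45. SE cultures spread from -0.86 in Z913 to 1.05 in Z911.

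Reg3a was lower and more variable. Its levels in libraries labelled untreated were 9.99, 5.11 and 5.58 CPM in SR, 1.90, 4.72 and 13.9 CPM in SE, and 13.7, 18 and 6.13 CPM in GF. Under the TNF label the same cultures gave 8.12, 4 and 2.64 CPM, then 2.62, 2.11 and 14.1 CPM, and 7.14, 12.1 and 0.113 CPM. The last value, from Z919, rests on 4 counts, against 138 in the partner library. Both sets overlapped, and the fitted log2 difference was -0.58 (standard error 0.513, adjusted p = 0.874, edgeR; -0.84 and adjusted p = 0.317 with the culture as block). Within cultures, Reg3a was lower under the TNF label in 7 of 9, with a mean log2 difference of -0.995 ± 1.62 (SD, n = 9, exact permutation p = 0.0312, unadjusted). Without Z919 the mean difference was -0.48 and the exact permutation p was 0.0625, and p was also 0.0625 without Z910, Z912, Z917 or Z918.

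Reg4, the member linked to secretory cells, ranged from 8.92 to 37.1 CPM (median 24.1) under the untreated label and from 11.8 to 37.3 CPM (median 19.8) under the TNF label. The groups overlapped, with a fitted log2 difference of -0.16 (standard error 0.254, adjusted p = 0.946, edgeR) and a within-culture difference of -0.11 ± 0.61 (SD, n = 9, exact permutation p = 0.672). Cultures split 4 lower to 5 higher. Z908 stood apart, falling from 34.9 to 12.4 CPM, and it was also the culture in which Reg3g fell least.

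Reg1 was at the edge of detection. It had 0 counts in 5 of 9 organoid libraries labelled untreated and at most 44 counts, in Z908 (1.64 CPM), and it had at most 15 counts in the TNF-labelled libraries. Under each label, 4 of 9 libraries exceeded the floor of 3 counts. Reg1 did not pass the count filter between the labels, so the main fit gave no difference for it. It passed the filter in the SE against SR comparison for the untreated label and in both comparisons of the response between facilities, through a few libraries, and was not called in any of them.

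**Figure D2:**
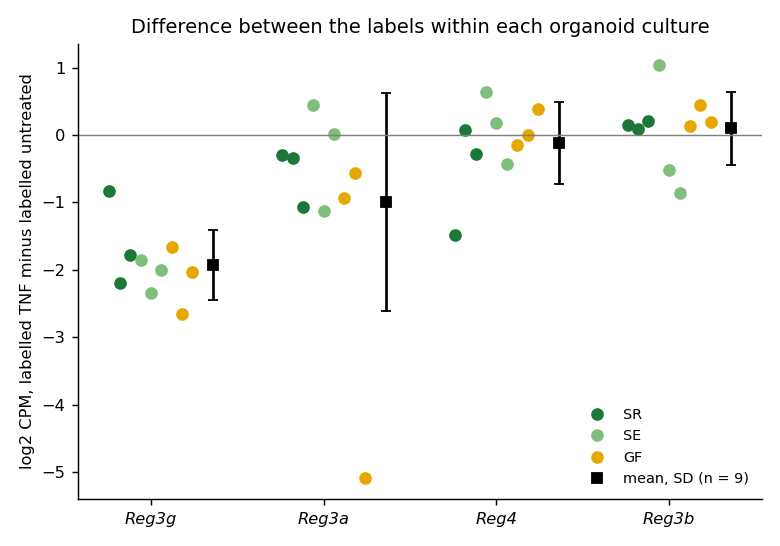
Difference in log2 CPM between the libraries labelled TNF and untreated of each of the 9 organoid cultures, for the 4 Reg genes above the count filter, coloured by facility; squares give the mean and bars the SD. Reg3g lies below 0 in 9 of 9 cultures (mean -1.93), while Reg3b and Reg4 scatter around 0 and Reg3a has 1 culture, Z919, at -5.09.

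The responses of the 4 genes were then compared with each other within cultures, for all 6 pairs. The change of Reg3b exceeded that of Reg3g by 2.03 ± 0.71 log2 units (SD, n = 9), in 9 of 9 cultures (exact permutation p = 0.00391, 0.0234 adjusted over the 6 pairs). Reg3g minus Reg4 was -1.81 ± 1.04, with Reg3g the lower in 8 of 9 cultures (SD, n = 9, exact permutation p = 0.00781, 0.0234 adjusted). Reg3g minus Reg3a was -0.93 over all cultures (SD 1.64, n = 9, exact permutation p = 0.125, 0.178 adjusted), and without Z919 it was -1.43 (exact permutation p = 0.00781, 0.0234 adjusted). Reg3a and Reg3b differed by -1.10 ± 1.69, in 8 of 9 cultures (SD, n = 9, exact permutation p = 0.0234, 0.0469 adjusted). Without Z919 this difference was -0.57 (exact permutation p = 0.0469, 0.0703 adjusted), and its adjusted p stayed under 0.05 in 1 of 9 runs that left out a culture, the one without Z913. These tests were added after the data had been seen.

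The order of the genes by level differed between the labels. The genes were sorted by their means in these same libraries and only neighbours were tested. The p-values of this order are therefore unadjusted and serve as a description. Levels were taken per kilobase of the longest coding transcript. In the libraries labelled untreated, Reg3g exceeded Reg3b by 2.03 log2 units in 9 of 9 cultures (exact permutation p = 0.00391). Reg3b exceeded Reg4 by 0.41 in 7 of 9 (exact permutation p = 0.0586, not under 0.05), and Reg4 exceeded Reg3a by 1.22 in 9 of 9 (exact permutation p = 0.00391). Under the TNF label, Reg3b and Reg3g could not be ordered (difference 0.003 log2 units per kilobase, SD 0.407, exact permutation p = 0.984). Reg3g stood above Reg4 by 0.62 (exact permutation p = 0.0352, 8 of 9 cultures), and Reg4 above Reg3a by 2.10 (exact permutation p = 0.00391). Of the summed Reg3a, Reg3b and Reg3g level per kilobase, Reg3g made up 63.1 to 87.1% (median 74.2%) under the untreated label and 30 to 50.3% (median 47.9%) under the TNF label, with no overlap. Reg3b made up 11 to 29.4% and 28.3 to 57.5%. A lower Reg3g alone lowers its own share and raises that of Reg3b. The changed place of Reg3g and these shares thus largely restate its difference between the labels and are not a separate result. The sum itself was 155 ± 38.1 and 71.8 ± 30.2 CPM per kilobase (SD, n = 9 each).

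**Figure D3:**
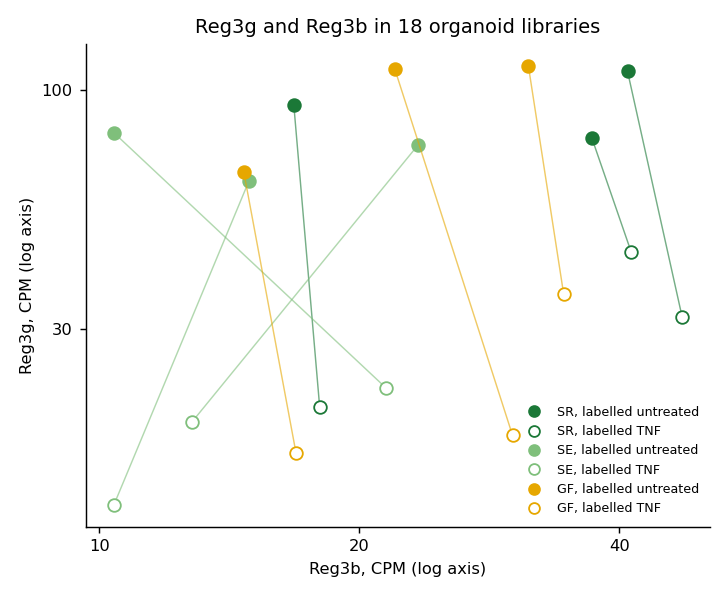
Reg3g against Reg3b in the 18 organoid libraries, in CPM on log axes, coloured by facility; lines join the libraries labelled untreated (filled) and TNF (open) of a culture. The libraries separate along the Reg3g axis, where no TNF-labelled library exceeds 44.3 CPM and no untreated-labelled one is under 63.2 CPM, and not along the Reg3b axis.

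Across cultures, levels of the 4 genes were compared pairwise under each label and for the within-culture difference, 18 relations in all. The strongest was between Reg3b and Reg3g under the TNF label (n = 9, Pearson's r = 0.846, exact permutation p = 0.00478, adjusted 0.086; Spearman's rho = 0.817, permutation p = 0.0108, adjusted 0.194), with r = 0.77 without the 2 cultures farthest from the Reg3b median. None of the 18 passed an adjusted p of 0.05. Under the untreated label the same pair had r = 0.538 (exact permutation p = 0.136), and for the difference between labels r = 0.1 (exact permutation p = 0.792).

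Genes whose log2 CPM followed each member most closely over the 18 organoid libraries were listed as a description, among the other genes above the filter. The closest to Reg3g were Cyba (r = 0.947), the p22phox subunit of NADPH oxidases, Relb (r = 0.939), an NF-kB subunit, and C3 (r = 0.909), the central complement component, and these points share the separation by label. For Reg3b they were Tbca (0.757), Tceal8 (0.749) and Rundc3a (0.742). Naa60 (0.802), Lrrc19 (0.786) and Slc13a1 (0.776) were closest to Reg3a, and Hsd3b3 (0.797), Dusp6 (0.767) and Gpr137b (0.758) to Reg4. The lists of the 4 members did not share a gene, which says nothing further, since each holds only 3 of 12103 genes. Of the genes listed, the paper names Relb and C3 among the transcripts altered by TNF in organoids.

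The question of whether the donor's microbiota left a mark on these genes was addressed by comparing facilities within each label. No Reg gene passed the test between GF and SPF organoids, by edgeR or DESeq2 or at an unadjusted p of 0.05 by edgeR (0 of 4 genes under each label, against 3.99% and 3.8% of all genes at that threshold). Reg3g was at 66.4, 111 and 113 CPM in GF organoids labelled untreated, and at 63.2 to 110 CPM in SPF organoids, so 2 GF libraries lay just above the highest SPF library and the other near the lowest. Its log2 difference was 0.20 (standard error 0.188) under the untreated label and -0.12 (standard error 0.346) under the TNF label. For Reg3b the differences were -0.08 (standard error 0.386) and 0.10 (standard error 0.406), for Reg4 0.18 (standard error 0.383) and 0.44 (standard error 0.314), and for Reg3a 0.87 (standard error 0.524) and 0.19 (standard error 0.838), all with adjusted p = 1.0 (edgeR). The background was 0.0325% of genes called under the untreated label and 0.0324% under the TNF label, 4 genes in each. Means of the 2 libraries of a culture, which do not depend on which label is right, differed between 3 GF and 6 SPF cultures by 0.05 for Reg3g, 0.15 for Reg3b, 0.19 for Reg4 and 0.09 for Reg3a in log2 CPM (exact permutation p = 0.893, 0.762, 0.667 and 0.893; the smallest possible is 0.0119). Differences of the size of these errors were not detectable with 3 GF cultures.

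Between the 2 SPF facilities, Reg3b and Reg3g had lower levels in SE than in SR, without passing the adjustment over all genes by edgeR or DESeq2. Reg3b was at 37.2, 16.8 and 40.9 CPM in SR and at 10.4, 14.9 and 23.4 CPM in SE under the untreated label. Under the TNF label it was at 41.3, 18 and 47.3 CPM in SR and at 21.5, 10.4 and 12.8 CPM in SE, so the ranges overlapped under both labels through Z909. The log2 differences were -0.97 (standard error 0.376) and -1.26 (standard error 0.358), with adjusted p = 1.0 each (edgeR). Reg3g differed by -0.36 (standard error 0.183) and -0.86 (standard error 0.308), again with adjusted p = 1.0 (edgeR). Its ranges overlapped too. Under the untreated label SE reached 80.7 CPM and SR began at 78.5 CPM, and under the TNF label these limits were 22.3 and 20.3 CPM. At an unadjusted p under 0.05 by edgeR stood 1 of 5 Reg genes tested under the untreated label (Reg3b), against 3.98% of 12219 genes, and 2 of 4 under the TNF label (Reg3b and Reg3g), against 3.47% of 12299 genes. Culture means were lower in all 3 SE than in all 3 SR cultures for both genes, with SE minus SR at -1.07 log2 units for Reg3b and -0.58 for Reg3g, each with an exact permutation p = 0.1, the smallest that 3 against 3 allows. For both genes this split was a near tie. Reg3b was at 23.4 and 12.8 CPM in Z913 against 16.8 and 18 CPM in Z909 (untreated label first). Reg3g was at 80.7 and 22.3 CPM in Z911 against 92.9 and 20.3 CPM in Z909. Reg3a (-0.21, exact permutation p = 0.8) and Reg4 (0.08, exact permutation p = 0.6) were mixed. Under the untreated label 0% of genes were called (486 at an unadjusted p under 0.05 by edgeR, 8 at an adjusted p by DESeq2), and under the TNF label 0.00813%, which is 1 gene.

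No dependence of the label difference on the facility was detected for any member. The mean within-culture change of Reg3g was -1.60 ± 0.70 for SR donors, -2.07 ± 0.25 for SE donors and -2.12 ± 0.50 for GF donors (SD, n = 3 each). The interaction was -0.27 (standard error 0.366) for GF against SPF and -0.50 (standard error 0.36) for SE against SR, adjusted p = 1.0 in both cases (edgeR). Reg3b changed by 0.15 ± 0.06 in SR, -0.11 ± 1.02 in SE and 0.26 ± 0.17 in GF cultures (SD, n = 3 each). No gene of the whole table was called in either interaction by edgeR (0% each; 302 and 323 genes at an unadjusted p under 0.05), and DESeq2 called 3 and 2, none of them a Reg gene.

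The reference cultures had few or no Reg counts. Reg1 was at 0 counts in all 9 libraries of m-ICc12 and MEF. Reg4 was at 0 in MEF and in 4 of 6 m-ICc12 libraries, with 7 and 4 counts in the pair M2. Reg3a had at most 1 count in any of these libraries. Reg3g had 1 to 4 counts in m-ICc12 and 2 or 3 in MEF. Reg3b had 1 to 3 counts in 8 of the 9 and 28 counts (0.611 CPM) in the untreated-label library of M2, the most deeply sequenced m-ICc12 library. In organoids labelled untreated, mean Reg3g was 1780-fold the pooled m-ICc12 level for that label, which rests on 6 counts (95% exact Poisson interval 820 to 4860, covering the counting error of the line only), and 1360-fold the MEF level (660 to 3380, 7 counts). Reg3b was 86.8-fold the m-ICc12 level (61.8 to 126), which M2 sets, and 424-fold the MEF level (195 to 1160, 6 counts). The m-ICc12 interval for Reg3b leaves out the spread between libraries. Without M2 the fitted log2 difference of organoids from m-ICc12 was 8.42, against 6.52 with it. Reg4 was 402-fold the m-ICc12 level (195 to 999, 7 counts) and at least 265-fold higher than in MEF, where the floor of 3 counts per library was taken. Reg3a, with 1 count in each line, was 1070-fold (192 to 42200) and 950-fold (170 to 37500) higher. These folds hold for the untreated label. Under the TNF label Reg3g was 223-fold the m-ICc12 level (108 to 554, 7 counts) and 377-fold the MEF level (183 to 938), and Reg3b was 331-fold (142 to 1020, 5 counts) and 466-fold (214 to 1270). For Reg4 the values were 332-fold (130 to 1220, 4 counts) and at least 239-fold, and for Reg3a 376-fold (67.5 to 14900, 1 count) and 637-fold (114 to 25200). In both fits of organoids against a line, 4 Reg genes passed the count filter only through the organoid libraries in which they are high, so that they were called says nothing further (60.9% of all genes tested were called against m-ICc12 and 67.2% against MEF). No Reg gene passed the count filter between the labels in m-ICc12 or between m-ICc12 and MEF.

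Pathway genes around the Reg family were examined next. Of 12 genes for receptors and signalling upstream of Reg genes, with the proposed Reg receptor Extl3, 11 were tested between the labels in organoids. Of these, 0 were called higher and 1 lower, beside 1.39% of all genes called. The median log2 difference was -0.005 against 0 over all genes. The 1 called was Il6st, which encodes the shared receptor chain gp130, at 58.2 ± 6.56 and 43.1 ± 5.61 CPM (SD, n = 9 each; log2 difference -0.44, adjusted p = 0.0117, edgeR). Stat3, the transcription factor downstream of interleukin-22, was at 59.9 and 63.1 CPM (adjusted p = 0.94, edgeR), its feedback inhibitor Socs3 at 11.4 and 11.7 CPM (adjusted p = 0.99, edgeR), and the interleukin-22 receptor chain Il22ra1 at 22.4 and 15.8 CPM (adjusted p = 0.173, edgeR). At an unadjusted p under 0.05, edgeR gave 4 of the 11 upstream genes, all lower under the TNF label, against 8.86% of all genes. Beside Il6st these were Il22ra1 (log2 difference -0.51), Tyk2 (-0.255) and Jak1 (-0.23).

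Among 20 other antimicrobial or mucosal products, 11 were tested, 1 was called higher under the TNF label and 3 lower, with a median log2 difference of -0.44. Over all genes 1.39% were called. At an unadjusted p under 0.05 by edgeR stood 6 of the 11, against 8.86% of all genes. The list was picked with earlier results of these data known. Nos2, the inducible nitric oxide synthase, was at 22.5 ± 8.24 and 3.32 ± 3.10 CPM (SD, n = 9 each; log2 difference -2.77, adjusted p = 0.000114, edgeR). Pigr, which carries immunoglobulin A across the epithelium, fell from 2650 to 1950 CPM (-0.44, adjusted p = 7.29e-05, edgeR), and Lypd8, a GPI-anchored protein that binds flagella, from 308 to 211 CPM (-0.56, adjusted p = 0.00309, edgeR). Dmbt1, a scavenger receptor that binds bacteria, was higher, at 33.8 and 94.4 CPM (1.47, adjusted p = 0.00438, edgeR). Lysozyme, Lyz1, was at 137 and 135 CPM (adjusted p = 0.984, edgeR). With the culture as block 4 were lower, the lectin gene Itln1 being added (188 and 147 CPM, adjusted p = 0.000215, edgeR), beside 397 of 12104 genes called.

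**Figure D4:**
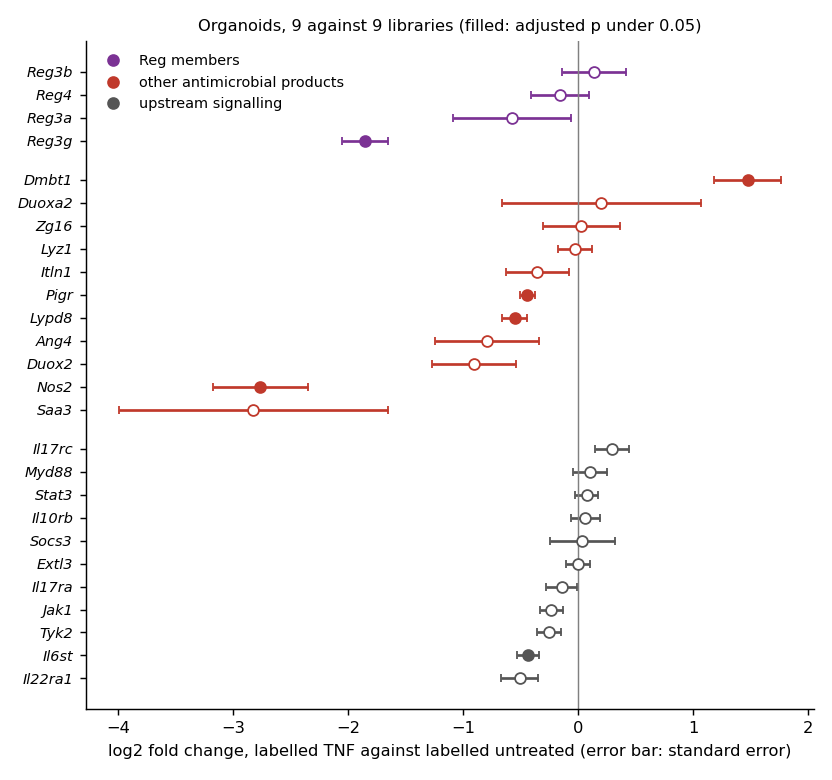
log2 fold change between organoid libraries labelled TNF and untreated, with its standard error, for the Reg genes, 11 other antimicrobial products and 11 upstream signalling genes (filled, adjusted p under 0.05). Reg3g (-1.86) lies with Nos2 (-2.77) among the genes lower under the TNF label, Dmbt1 (1.47) is the only called gene on the other side, and Il6st (-0.44) is the only upstream gene called.

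Markers of the cell types that could make Reg transcripts were compared over the same libraries. No Paneth cell marker of 6, no goblet cell marker of 7, no enteroendocrine marker of 7, no enterocyte marker of 8 and no tuft cell marker of 3 was called between the labels by edgeR or DESeq2. At an unadjusted p under 0.05, edgeR gave 1 goblet cell marker (Agr2) and 2 enteroendocrine markers (Neurod1 and Tac1), against 8.86% of all 12104 genes. With the culture as block, Itln1 and the enterocyte gene Apoa1 (553 and 401 CPM) were lower, and Fcgbp, Agr2 and Sis were higher. Summed Paneth cell markers were at 214 to 549 CPM under the untreated label and 181 to 500 CPM under the TNF label, and summed enterocyte markers at 1440 to 5770 and 1490 to 6060 CPM. Of 4 intestinal stem cell markers, 2 were lower in the libraries in which Reg3g was lower: Olfm4, at 886 ± 407 and 251 ± 179 CPM (SD, n = 9 each; log2 difference -1.82, adjusted p = 0.000238, edgeR), and the transcription factor gene Ascl2, at 28.4 and 8.80 CPM (-1.70, adjusted p = 3.45e-05, edgeR). Lgr5 was at 152 and 160 CPM and Smoc2 at 529 and 571 CPM, neither called. The 2 calls among 4 stem cell markers stand beside 1.39% of all 12104 genes, for a list picked with earlier results known. The summed stem cell markers were at 1070 to 2860 CPM under the untreated label and 716 to 1690 under the TNF label, and their part in the Reg3g result was not tested. Fibroblast and immune markers were near 0 in organoids under both labels, at most 9.1 and 4.78 CPM summed.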

How the data were processed

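Poly(A) RNA of 27 samples was sequenced single-end with a TruSeq kit that the labels, but not the paper, describe as stranded. The authors trimmed reads with Trimmomatic, aligned them to GRCm38 (Ensembl annotation) with STAR and counted them per gene; the paper names GenomicRanges and the submitters' processing notes featureCounts, which also give STAR 2.5.4b. The deposited values are raw counts per gene, not normalized, for 22524 genes; 22214 identifiers matched a symbol. Use of strand and of reads aligning to several places is not given in the sources used here. Groups followed the sample labels.

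CPM used TMM factors over all 27 libraries. Genes with at least 10 counts in 50% of the libraries of a compared group were tested with edgeR 4.0.16 (quasi-likelihood, R 4.3.3), adjusted over all genes tested at 0.05; 4 of the 5 Reg genes passed in the comparison between labels. DESeq2 1.42.0, no filter, 1 fit of all libraries, the culture as block, facility as covariate and leaving out cultures were alternatives. Single genes were tested on log2 CPM (prior count 2) with two-sided exact permutation tests. Scripts were tested on simulated data.

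Organoid libraries of 1 culture come from 1 mouse by the study's description, so they pair. Deviations from the label means correlated within cultures (mean r = 0.171, 0.0821 to 0.31, n = 9). The mean between cultures (-0.02) is largely set by subtracting those means, so it adds no support for the pairing. No replicate pair agreed within sampling noise. The p-values between cell line libraries measure the spread between samples, which may be technical.

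The rule for the Reg genes uses their names only, but the family, the pathway genes and the marker lists were picked with earlier results of these data known. Named are the members, Reg2 and Reg3d, the 3 genes that check the labels, list genes called between the labels or defining a list, and for each member the 3 genes of highest r; the list genes given with values though not called were chosen after their values were seen. Pla2g2a was not analysed here. Promoters came from RefSeq (7 of 7 family genes matched), positions and lengths from GENCODE vM21.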

Additional observations from a re-analysis of the deposited data

Results flagged for a closer look

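In 12 sets of 9 organoid cultures (the level of 4 Reg genes under each label and the within-culture difference), the gap between the most extreme culture and its nearest neighbour was set against the whole range. The limit used marks about 1 in 20 such sets by chance, and 3 sets passed it. Reg3a under the TNF label was far lower in Z919 than in the other cultures, with a gap of 0.571 of the range in log2 CPM (0.113 CPM, 4 counts, against 2.11 CPM in the next lowest library). The within-culture difference of Reg3a also set Z919 apart, with a gap of 0.715 of the range, at -5.09 log2 units against -1.13 in Z912. This difference uses the same library with 4 counts, so these 2 flags are not separate. The within-culture difference of Reg4 set Z908 apart, with a gap of 0.497 of the range, at -1.48 against -0.43 in Z913. Z919 was not extreme for Reg3g (-2.04) or Reg3b (0.19).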

How the results depend on the processing

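The lower Reg3g under the TNF label, and its place as the only Reg gene called, were the same with DESeq2, without the count filter, with all 27 libraries in 1 fit (-1.89), with facility as covariate, with the culture as replicate block (-1.94) and without any 1 culture (-2.03 to -1.76, adjusted p at most 1.13e-05, edgeR). The replicate block changed no other call of a Reg gene. Over all genes it raised the calls between labels from 168 to 397, and DESeq2 gave 216; DESeq2 called 21 and 10 genes for GF against SPF where edgeR called 4 and 4, 8 and 5 for SE against SR where edgeR called 0 and 1, and 46 between the labels in m-ICc12 where edgeR called 13 and the block 6. No paired analysis was possible between facilities or cell types because these groups share no mice. Of 745 alternative values, 701 kept their direction and their side of the threshold, correlations having no threshold. The GF against SPF difference of Reg3b under the untreated label reversed to 0.006 with all libraries in 1 fit. Leaving out 1 culture at a time moved uncalled differences across 0: Reg4 between labels (-0.26 to 0.007); GF against SPF, untreated label, Reg3b (-0.39 to 0.15) and Reg4 (-0.22 to 0.58); GF against SPF, TNF label, Reg3a (-0.65 to 0.77), Reg3b (-0.12 to 0.38) and Reg3g (-0.58 to 0.12); SE against SR, untreated label, Reg3a (-1.06 to 0.43) and Reg4 (-0.63 to 0.048), and TNF label, Reg3a (-1.06 to 0.93); the interactions of Reg3g for GF (-0.59 to 0.005) and Reg3b for SE (-0.89 to 0.17); the within-culture differences of Reg3b (-0.017 to 0.22) and Reg4 (-0.21 to 0.057); and culture means between GF and SPF of Reg3a (-0.64 to 1.26), Reg3b (-0.088 to 0.44), Reg3g (-0.20 to 0.28) and Reg4 (-0.19 to 0.74). The within-culture difference of Reg3a stayed negative (-1.18 to -0.48) and its exact permutation p rose to 0.0625 in 5 of 9 such runs. With the other library of each culture, the fitted log2 differences of organoids from m-ICc12 were 7.69 for Reg3g (10.70 with the untreated label) and 8.21 for Reg3b (6.52), and from MEF 8.46 for Reg3g (10.33). The causes were not tested. Reg1 gave little to compare, since only 4 of 9 organoid libraries under each label exceeded the floor of 3 counts. The comparisons between labels in m-ICc12 and of m-ICc12 with MEF gave no value, since no Reg gene passed the count filter.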

Other observations

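Of the 2 family genes in the chromosome 6 cluster that were not chosen, Reg2 had 0 counts in all 27 libraries. Reg3d was at 0 in 24 libraries and had 42 counts (2.44 CPM) in the untreated-label library of Z910, 5 counts (0.198 CPM) in that of Z913 and 12 counts (0.384 CPM) in the TNF-label library of Z918, so its signal came from 1 library of each of 3 cultures.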
